A study of Danio rerio with 12 samples.

Results

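Zebrafish larvae exposed to the low dose of broflanilide were compared with larvae given the DMSO solvent alone, using messenger RNA counts per gene. The comparison takes 9 of the 12 libraries of the series: low dose at 1 µg/L (n = 4) and DMSO control (n = 5); the high dose at 10 µg/L (n = 3) appears only where stated. Of 25811 genes listed for these libraries, the 18811 with a mean count of at least 10 over the 9 libraries were tested. The 4 low-dose libraries are named low dose replicates 1 to 4, and replicate 4 stood apart in earlier results of these data, so values are given with and without it. The sources used here give no larval age, exposure time, fish strain or number of larvae per library. No label ties a library to its own clutch or pool, so a p-value covers the spread among these libraries alone, and that spread may be technical. In bulk larval RNA, fewer cells of a type and less RNA per cell cannot be told apart.

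Broflanilide is a meta-diamide insecticide. It acts on the RDL subunit of the insect GABA-gated chloride channel at a site different from that of older blockers of this channel, and so removes inhibition from the nervous system. Zebrafish larvae carry the vertebrate relatives, the GABA-A and glycine receptors, in brain, spinal cord and retina. Bulk larval RNA mixes these tissues with muscle, lens, pancreas, gut, liver and skin.

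Total counts ran from 10721597 to 16380300 per library. At 43.1% of the genes tested, low dose replicate 4 lay above or below all of the other 8 libraries. Control replicate 3 did so at 44.7% and control replicate 2 at 32.2%, against 9.76% to 16.9% in the other 6 libraries. The share of counts from the mitochondrial genome was 4.70% in low dose replicate 4, 5.47% to 6.99% in the other low-dose libraries and 6.72% to 7.59% in controls. Values below are therefore also given without low dose replicate 4, and some of them without control replicates 2 and 3 as well.

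**Figure D1:**
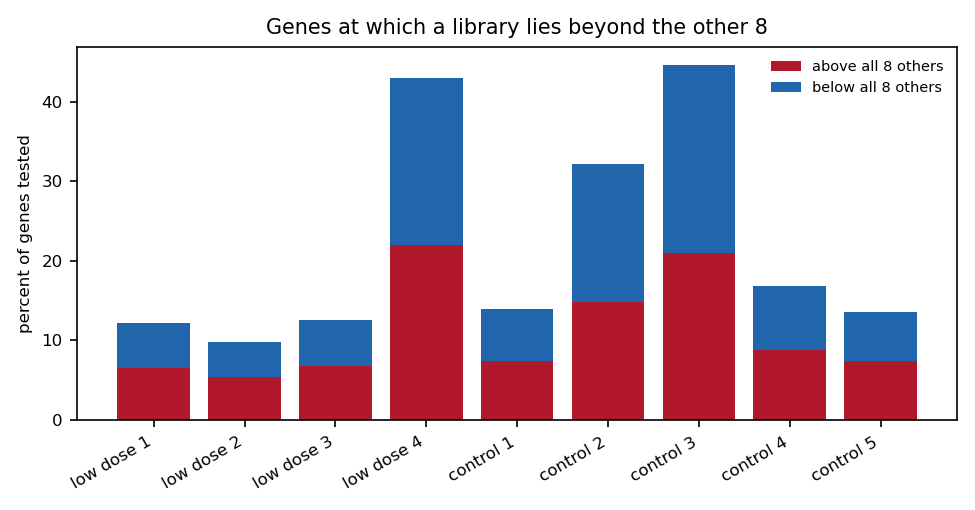
Share of the 18811 genes tested at which each library lay above (red) or below (blue) all of the other 8, in percent, with libraries on the horizontal axis. Low dose 4 (43.1%), control 2 (32.2%) and control 3 (44.7%) stand above the other 6 libraries.

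With edgeR's quasi-likelihood test and Benjamini-Hochberg adjustment, 0 of the 18811 genes passed an adjusted p of 0.05 (0% of those tested). The smallest adjusted p was 0.924 with all 9 libraries and 1.00 without low dose replicate 4. An unadjusted p under 0.05 was reached by 732 genes (3.89%), of which 393 (2.09%) had higher and 339 (1.8%) lower values at the low dose. Without low dose replicate 4 there were 277 (1.47%), 107 higher (0.569%) and 170 lower (0.904%). Both totals, 3.89% and 1.47%, lie under the share that a threshold of 0.05 lets through without any difference. Of the 732 genes, 203 (27.7%, or 1.08% of all genes) were under 0.05 in the same direction in both fits, 81 higher and 122 lower. At 556 of the 732 genes (76.0%), low dose replicate 4 lay beyond all of the other 8 libraries. Without it, 67 of the 732 (9.15%) had less than 0.5 times their log2 fold change, 4 of them with the opposite sign. Leaving out control replicates 2 and 3 as well gave 599 genes (3.18%), which also lies under that share. Of the 18811 genes, 121 were under 0.05 in all 3 fits, 54 higher and 67 lower. The 3 fits share libraries, so passing all of them is no further support.

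**Figure D2:**
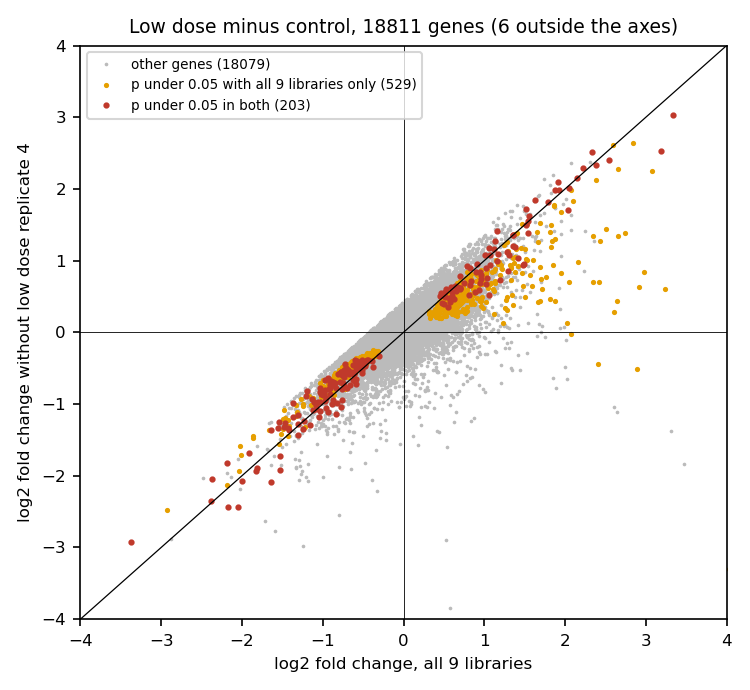
Log2 fold change (low dose minus control) of each gene with all 9 libraries (horizontal axis) and without low dose replicate 4 (vertical axis); the diagonal marks equal values and 6 genes lie outside the axes. Red points are the 203 genes at an unadjusted p under 0.05 in both fits and orange points the 529 under it only with all 9 libraries.

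A second description needs no test. At 291 genes (1.55%) every low-dose library lay on 1 side of every control, with 134 above (0.712%) and 157 below (0.835%). Of these, 105 (0.558% of all genes) also had an unadjusted p under 0.05 in both fits. Low dose replicates 1 to 3 alone lay on 1 side of every control at 417 genes (2.22%), 198 above (1.05%) and 219 below (1.16%). Group labels dealt out at random would on average separate at least as many genes. Neither 291 nor 417 is therefore a count of genes that respond to the dose. The median log2 fold change of the 291 was 0.76 for the higher and -0.64 for the lower genes, and 0.68 and -0.54 without low dose replicate 4. The genes named next are the 14 higher and 14 lower with the smallest p among those with a standard symbol and a mean count of at least 50. They were picked for these values, so their p-values are no further support. None of the 28 passed the edgeR threshold, and none changed sign under any alternative run. Genes picked for full separation can hardly change sign when libraries are left out, so the kept signs are no further support either.

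Among the genes with higher values, coq8a encodes an atypical kinase-like protein of coenzyme Q synthesis (ENSDARG00000020123, chromosome 20 from 38458084 to 38519126, GRCz11, on the plus strand). In low dose replicates 1 to 4 it was at 54.5, 52.2, 54.8 and 66.97 CPM, and in control replicates 1 to 5 at 34.8, 28.98, 34.3, 41.5 and 36.4 CPM. All 4 low-dose libraries lay above the highest control, and replicates 1 to 3 differed by less than 3 CPM from each other. The means were 57.1 ± 6.68 CPM (SD, n = 4) and 35.2 ± 4.50 CPM (SD, n = 5). On the log2 scale the difference was 0.70 (SE 0.15), with 0.61 without low dose replicate 4 and 0.52 when control replicates 2 and 3 were left out too. Genes on the opposite strand overlap coq8a, and with the strand setting of the counting not stated, reads may be shared. The list of 11 coenzyme Q synthesis genes, coq8a included, had a median of -0.17, and -0.03 without low dose replicate 4. In both fits 7 of the 11 were lower.

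Among the 14 higher genes were myhz1.2, palld and twf2a. The fast skeletal myosin heavy chain gene myhz1.2 was at 2095, 1988, 3146 and 2796 CPM in the low-dose libraries and at 1365, 691, 1610, 1464 and 1612 CPM in controls. Control replicate 2 was far below the other controls, and the log2 fold change of 0.89 (SE 0.27) was 0.73 without it. Its neighbours on chromosome 5 are close copies, so reads may be split between them. For palld, an actin-bundling scaffold, low-dose levels of 91.2, 93.9, 125 and 260 CPM stood against 77.1, 28.5, 50.5, 84.1 and 71.1 CPM. Replicate 4 carried much of that difference, and the log2 fold change of 1.2 (SE 0.36) was 0.73 without it and 0.42 without control replicates 2 and 3 as well. Twinfilin, which caps actin filaments, is encoded by twf2a, at 34.5, 33.5, 43.7 and 61.7 CPM against 22.8, 4.85, 10.5, 29.4 and 20.2 CPM. The lowest levels were in control replicates 2 and 3, and the log2 fold change of 1.3 (SE 0.41) was 0.63 without these and low dose replicate 4.

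Some of the 14 had smaller differences. The tyrosine kinase gene csk, whose product switches off Src-family kinases, was at 23.4, 22.4, 28.9 and 22.2 CPM against 18.3, 18.3, 13.6, 16.3 and 13.8 CPM. Low dose replicate 4 was the lowest of its group there, and the log2 fold change of 0.59 (SE 0.18) was 0.63 without it. A Ras-association domain gene, rassf8b, was at 18.02, 18.2, 20.8 and 23.2 CPM against 10.5, 15.1, 14.03, 10.97 and 11.3 CPM. Its log2 fold change was 0.70 (SE 0.20), with 0.62 without low dose replicate 4 and 0.80 without control replicates 2 and 3 too. In contrast, nploc4, a cofactor of the p97 segregase that draws ubiquitinated proteins out of complexes, was at 87.1 CPM in low dose replicate 4 and at 27.4 to 34.4 CPM in the other low-dose libraries. Controls lay between 17.7 and 24.9 CPM, and the log2 fold change of 1.06 (SE 0.31) dropped to 0.52 without that library.

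The other genes with higher values were ubap2b (log2 fold change 1.3, 0.85 without low dose replicate 4), prodha, the proline dehydrogenase of mitochondria (0.93, 0.59), serbp1b, an mRNA-binding protein of the ribosome (0.62, 0.46), nucb1, a Golgi calcium-binding protein (0.57, 0.47), reps1, an endocytic adaptor (0.50, 0.40), and polr3a, the largest subunit of RNA polymerase III (0.82, 0.65). With control replicates 2 and 3 left out too, ubap2b was at 0.58, prodha at 0.36 and polr3a at 0.47, and polr3a then had an unadjusted p of 0.0559 in edgeR. At polr3a, control replicate 3 was at 5.34 CPM and the other controls between 10.8 and 11.8 CPM. The pancreatic elastase-type gene CELA1 (1 of many) on chromosome 22 was at 12.1, 8.74, 10.8 and 15.5 CPM against 2.66, 4.71, 7.96, 5.03 and 6.20 CPM, a log2 fold change of 1.16 (SE 0.32), and 0.99 without low dose replicate 4. A second gene of that name lies beside it and had a log2 fold change of 0.22 (SE 0.31), and 0.36 without that library, and reads may be shared between such copies.

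Of the genes with lower values, rps15, a protein of the small ribosomal subunit, had the smallest p of all genes. Its level was 13.8, 16.5, 13.4 and 7.32 CPM in low dose replicates 1 to 4 and 36.1, 27.0, 24.9, 51.4 and 36.1 CPM in controls. Every low-dose library lay below the lowest control, and replicate 4 was the lowest. The log2 fold change was -1.46 (SE 0.28, edgeR adjusted p = 0.924) with all libraries and -1.27 (SE 0.25) without low dose replicate 4. Over the alternatives its adjusted p ran from 0.0176 with DESeq2 to 1.00, and it was 0.0951 by edgeR with the 3 libraries that stood apart left out. The authors' deposited table gives -1.45 at the low dose (adjusted p = 0.0258) and -2.03 at the high dose (adjusted p = 3.04e-06), where the same control libraries serve both comparisons. The other cytosolic ribosomal protein genes did not share that size: the list of 78, rps15 included, had a median of -0.17, and -0.05 without low dose replicate 4.

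Among the 14 lower genes were en2b, dbx1a, znf362a and hmgn6. The homeobox gene en2b, of the midbrain-hindbrain region, was at 16.02, 20.4, 16.6 and 11.6 CPM against 26.5, 24.2, 30.2, 22.6 and 26.0 CPM. For dbx1a, a homeobox gene of spinal and hindbrain progenitors, the levels were 3.36, 3.71, 3.29 and 1.68 CPM against 6.58, 6.49, 7.43, 4.48 and 5.87 CPM. Log2 fold changes were -0.68 (SE 0.20) and -1.04 (SE 0.33), and -0.55 and -0.83 without low dose replicate 4. With control replicates 2 and 3 left out too, dbx1a was at -0.71 with an unadjusted p of 0.0773 in edgeR. The zinc finger gene znf362a differed by less but most evenly, at 26.0, 28.2, 26.6 and 22.6 CPM against 37.2, 41.8, 36.1, 40.7 and 33.8 CPM (log2 fold change -0.55, SE 0.15, and -0.49 without low dose replicate 4). The nucleosome-binding gene hmgn6 was at 3.28, 2.94, 3.00 and 1.29 CPM, while controls held 4.57 to 8.94 CPM except control replicate 1 with 24.4 CPM. Its log2 fold change of -1.92 (SE 0.54) was -1.25 without that control.

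The 14 also held kif15, rrm2 and terf1. The mitotic kinesin gene kif15 was at 4.57, 6.29, 4.17 and 3.97 CPM against 9.39, 6.35, 9.63, 10.5 and 13.6 CPM (log2 fold change -1.06, SE 0.29, and -0.98 without low dose replicate 4). Ribonucleotide reductase, which makes DNA precursors, takes its small subunit from rrm2, a symbol carried by a gene on chromosome 19 and another on chromosome 20. The former was at 10.4, 8.25, 6.49 and 5.59 CPM against 13.9, 10.6, 20.3, 11.6 and 19.6 CPM (log2 fold change -0.98, SE 0.29, and -0.85 without low dose replicate 4). The latter was listed at 0 in low dose replicate 4, at 8.25 to 10.7 CPM in the other low-dose libraries and at 9.99 to 26.7 CPM in controls, and its log2 fold change of -1.29 (SE 0.78) was -0.87 (SE 0.35) without that library. For terf1, a telomere-binding protein, low-dose levels of 4.08, 3.64, 4.17 and 2.68 CPM stood against 6.14 to 7.33 CPM in controls (log2 fold change -0.92, SE 0.27, and -0.79 without low dose replicate 4). The loci of terf1, sdf2l1 and fam98b each overlap a gene on the other strand, so their reads may be shared. The rest of the 14 were smoc2, a matricellular protein (-0.87), ckmt2a, a mitochondrial creatine kinase (-0.85), sh3bp5b (-0.69), fam151b (-1.03), sdf2l1, an endoplasmic reticulum chaperone partner (-0.65), and fam98b (-1.09). Without low dose replicate 4 these 6 were between -1.02 and -0.53.

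**Figure D3:**
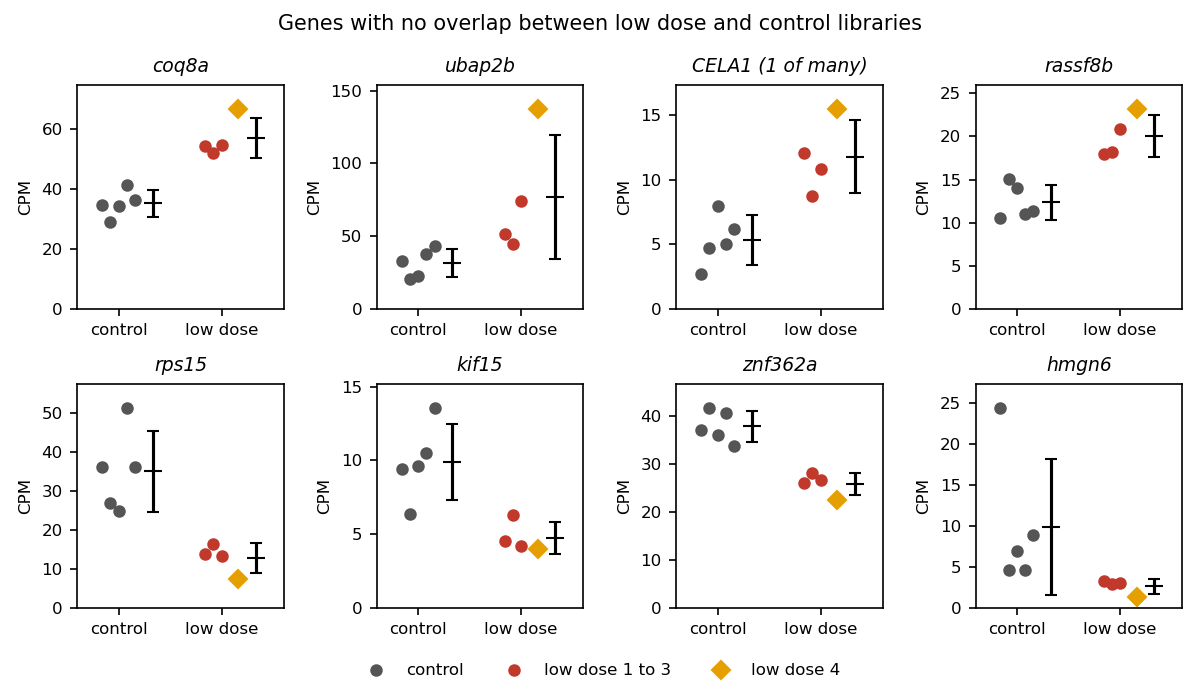
Level in CPM (vertical axes, from 0) in each control library (grey), low dose replicates 1 to 3 (red) and low dose replicate 4 (orange diamond) for the 4 higher and 4 lower genes with the smallest p; bars are mean ± SD. Groups do not overlap in any panel, as the genes were picked for this, and low dose replicate 4 is the farthest from the controls in each of the 8.

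Side by side with the high dose, which uses the same control libraries, the authors' deposited table gives for coq8a 0.72 at the low and 0.29 at the high dose. For znf362a the authors' deposited table gives -0.54 and -0.43, and for csk 0.60 and 0.48. For kif15 it gives -1.05 and -0.21, for rassf8b 0.72 and -0.06, and for hmgn6 -1.91 and 0.84, all in the authors' deposited table. None of these 6 has an adjusted p under 0.05 at either dose there.

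Gene lists were described by counts and medians beside all genes tested, whose median log2 fold change was 0.00 in both fits, with 50.2% of genes above 0 with all libraries and 49.7% without low dose replicate 4. Of 76 lists with at least 5 measured members, 33 had a median of at least 0.15 in size with all libraries and 22 without low dose replicate 4. The 20 that kept their sign are described here, 13 lower and 7 higher. A list score is the median over members of log2 CPM minus the control mean. For no list did all 4 low-dose libraries score outside the control range: replicate 4 did so in 42 lists, replicate 1 in 21, replicate 3 in 16 and replicate 2 in 9.

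Mitosis and chromosome segregation genes, which include spindle kinesins, kinetochore proteins and checkpoint kinases, had lower values in 48 of 52 members. Their median was -0.54, and -0.37 with 46 of 52 lower without low dose replicate 4. At an unadjusted p under 0.05, 10 of 52 were lower and 0 higher (all genes: 1.8% lower), and 4 were lower without low dose replicate 4 (all genes: 0.904%). At 4 members, 0 of them higher, the groups did not overlap (all genes: 0.835% lower, 0.712% higher). The list scores were -0.37, -0.18, -0.18 and -1.21 in low dose replicates 1 to 4, and controls ran from -0.27 to 0.70. Replicates 2 and 3 thus lay within the control range and replicates 1 and 4 below it. The kinetochore gene spc24 was at 0.881, 1.19, 1.16 and 0.503 CPM against 2.22 to 3.93 CPM in controls (log2 fold change -1.55, SE 0.47, and -1.34 without low dose replicate 4). A second kinetochore gene, kntc1, was at 2.48, 3.496, 4.26 and 1.90 CPM against 4.50 to 8.16 CPM (-0.98, SE 0.35, and -0.81 without low dose replicate 4), and the chromokinesin kif4 at 1.90 to 5.45 CPM against 4.85 to 11.8 CPM (-1.14, SE 0.38, and -0.93).

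DNA replication and nucleotide supply genes were lower in 41 of 45 members (median -0.41) and in 39 of 45 without low dose replicate 4 (median -0.21). At an unadjusted p under 0.05 there were 7 lower and 0 higher (all genes: 1.8% lower), and 5 lower without that library (all genes: 0.904%). The list scores were -0.48, -0.02, -0.18 and -0.86 in low dose replicates 1 to 4, and controls ran from -0.25 to 0.35. Replicates 2 and 3 thus lay within the control range. Thymidylate synthase, tyms, was at 1.52, 1.54, 0.388 and 0.280 CPM against 4.36, 4.35, 4.08, 2.19 and 9.14 CPM, with no overlap and a log2 fold change of -2.37 (SE 0.61, and -2.05 without low dose replicate 4). The replication clamp pcna was at 57.3, 99.5, 86.1 and 37.7 CPM against 92.1, 96.8, 144, 103 and 148 CPM (-0.74, SE 0.27, and -0.53). There the groups overlapped, as low dose replicate 2 lay above 2 controls. Genes whose symbols begin with mcm, most of them subunits of the replicative helicase, were lower in 8 of 9 (median -0.44, and -0.27 without low dose replicate 4).

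High mobility group genes, which bend or loosen chromatin, were lower in 10 of 12 members (median -0.34, and -0.23 with 11 of 12 lower without low dose replicate 4). The nucleosome-binding gene hmgn2 was at 375, 588, 458 and 290 CPM against 568, 584, 923, 605 and 789 CPM (log2 fold change -0.70, SE 0.24, and -0.55). At hmgb2b the levels were 140, 194, 154 and 82.5 CPM against 153 to 237 CPM (-0.48, SE 0.23, and -0.29). At hmgn3 low dose replicate 4 went the other way, with 139 CPM against 44.8 to 83.0 CPM in the other low-dose libraries, and the log2 fold change of 0.00 became -0.37 without it.

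Families were also formed from shared symbol stems with at least 8 members, which gave 321 of them. Among families with the same sign in both fits, the lowest medians without low dose replicate 4 were -0.31 (opn and ugt) and -0.30 (her). The highest were 0.52 (ms) and 0.48 (mhc). With that library included, the medians were -0.28 for opn, -0.16 for ugt, 0.18 for ms and 0.25 for mhc. The her genes encode basic helix-loop-helix repressors of the Hes type, many of them targets of Notch signalling that keep neural progenitors undifferentiated. All 13 measured her genes had lower values with all 9 libraries (median -0.49) and all 13 without low dose replicate 4 (median -0.30). Their scores were -0.51, -0.21, -0.30 and -1.31 in low dose replicates 1 to 4, and controls ran from -0.09 to 0.13. This was the 1 family of the 321 in which all 4 low-dose libraries scored below every control, and 0 families lay above every control in all 4. Among single genes, a different measure, 0.835% lay below every control in all 4. Group labels dealt out at random would on average give at least as many families below every control. The count of 1 in 321 therefore does not set the her genes apart. Members lower in both fits throughout a family were seen in that 1 family, and members higher throughout in 2, those with the symbol stems cct and psmc. In no single her gene did the groups separate completely.

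Among the her genes, her4.1 was at 6.25, 10.6, 5.72 and 2.68 CPM in the low-dose libraries and at 11.8, 10.6, 19.6, 12.2 and 10.4 CPM in controls. Low dose replicate 2 overlapped the lowest controls, and the log2 fold change was -1.03 (SE 0.37, and -0.77 without low dose replicate 4). For her4.3 the levels were 3.44, 4.20, 4.26 and 7.04 CPM against 4.96, 6.64, 6.70, 10.5 and 12.01 CPM. Here replicate 4 was the highest of its group, and the log2 fold change of -0.78 (SE 0.34) was -1.04 without it. For her2 they were 3.84, 5.17, 5.52 and 1.96 CPM against 4.94 to 12.04 CPM (-0.89, SE 0.37, and -0.65). For her15.1 they were 16.3, 24.7, 19.96 and 9.89 CPM against 20.6 to 28.4 CPM (-0.48, SE 0.25, and -0.28). The smallest differences were in her15.2 (-0.27, and -0.05 without low dose replicate 4) and her12 (-0.29, and -0.07). Without control replicates 2 and 3 the median was -0.58, with 12 of 13 lower, and with low dose replicate 4 left out too it was -0.29, again with 12 of 13 lower. The her4 genes and her12 lie close together on chromosome 23 and the her15 genes and her2 on chromosome 11. Copies of her4 are near identical and some loci overlap, so reads may be split and these 13 values are not independent.

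**Figure D4:**
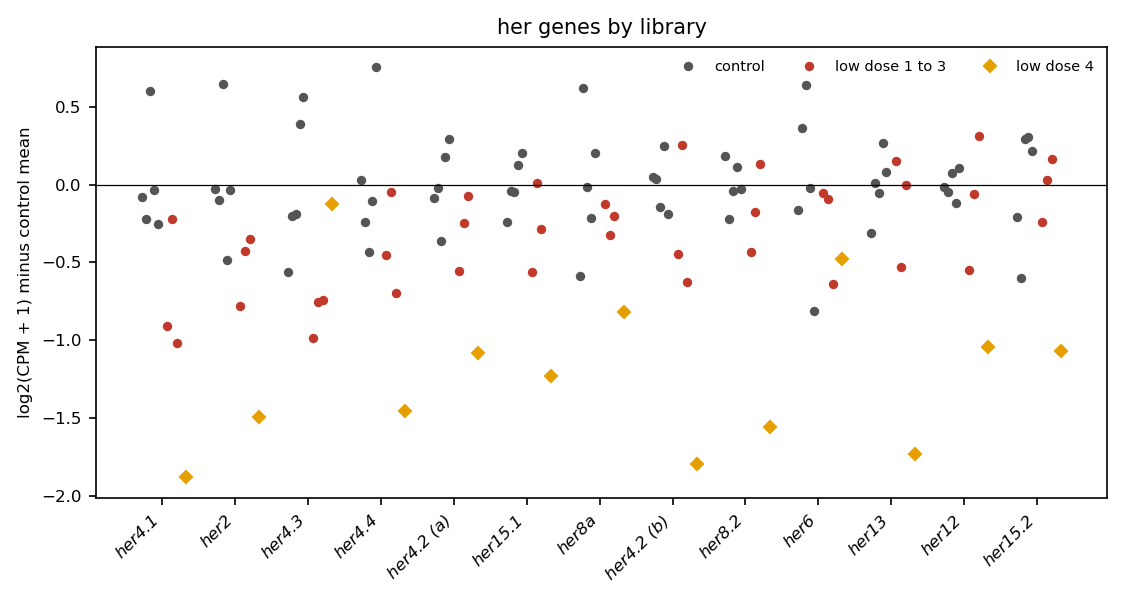
Log2(CPM + 1) of the 13 her genes in each library, minus the mean of the 5 controls (vertical axis), with genes on the horizontal axis. Grey points are controls, red points low dose replicates 1 to 3 and orange diamonds low dose replicate 4. A pair of genes shares the symbol her4.2 (a and b), and low dose replicate 4 is the lowest of the 9 libraries at most of the genes.

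Genes of photoreceptors made up the next group. Opsins and phototransduction genes, which turn light into a change of cone and rod potential, were lower in 41 of 51 members (median -0.26) and in 46 of 51 without low dose replicate 4 (median -0.27). With an unadjusted p under 0.05, 8 were lower and 0 higher (all genes: 1.8% lower, 2.09% higher), against 4 lower and 1 higher without low dose replicate 4 (all genes: 0.904% and 0.569%). Scores were -0.21, 0.05, -0.62 and -0.26 in low dose replicates 1 to 4 and -0.37 to 0.52 in controls, so only replicate 3 lay outside. Leaving out control replicate 2 gave a median of -0.08. The green cone opsin gene opn1mw1 was at 241, 252, 188 and 39.7 CPM against 282, 351, 269, 296 and 478 CPM, with no overlap (log2 fold change -0.90, SE 0.41, and -0.56 without low dose replicate 4). A cone transducin subunit, gnb3b, was at 349, 373, 248 and 144 CPM against 398, 526, 399, 406 and 554 CPM, also with no overlap (-0.71, SE 0.26, and -0.50). The gene beside opn1mw1, opn1mw2 for another green cone opsin, was at 31.3, 52.0, 37.3 and 9.62 CPM against 24.9 to 36.8 CPM, and its log2 fold change of 0.17 (SE 0.36) was 0.48 without low dose replicate 4.

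Visual cycle genes, which regenerate the chromophore of opsins, had a median of -0.01 with all libraries and -0.18 without low dose replicate 4, with 17 of 20 then lower. The isomerase gene rpe65a of the pigment epithelium was at 40.0, 43.6, 32.9 and 123 CPM against 42.4 to 57.7 CPM. Replicate 4 lay far above all others, and the log2 fold change of 0.25 became -0.38 (SE 0.17) without it. The cone channel subunit gene cnga3b behaved alike, at 11.9, 17.3, 13.1 and 58.8 CPM against 18.0 to 26.1 CPM (0.26, and -0.59 without low dose replicate 4).

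Immediate early genes, whose transcripts appear minutes after nerve cells fire or cells are stressed, had a median of -0.27 with 26 of 37 lower, and -0.39 with 33 of 37 lower without low dose replicate 4. With an unadjusted p under 0.05 there were 0 in the first fit (all genes: 3.89%) and 2 lower in the second (all genes: 0.904% lower). Scores were -0.0049, -0.37, -0.39 and 0.04 in low dose replicates 1 to 4 and -0.53 to 0.54 in controls, so no low-dose library lay outside the controls. The control spread is large for single genes: fosl1a, an AP-1 subunit, was at 2.498 to 33.4 CPM in controls and at 5.21, 2.52, 3.49 and 19.1 CPM at the low dose (log2 fold change -0.99, SE 0.81, and -2.02 without low dose replicate 4). The more abundant jund was at 85.5, 76.8, 77.2 and 129 CPM against 84.5 to 115 CPM (-0.12, SE 0.19, and -0.32). The MAP kinase phosphatase gene dusp5 was at 0.969 to 3.44 CPM in low dose replicates 1 to 3 and at 19.01 CPM in replicate 4, with controls at 2.78 to 11.3 CPM.

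Neuropeptide genes were lower in 25 of 36 members (median -0.11, and -0.15 without low dose replicate 4). The feeding-related peptide gene cart4 was at 5.93, 10.1, 7.37 and 3.97 CPM against 14.3, 9.13, 15.1, 13.3 and 11.9 CPM (log2 fold change -0.89, SE 0.30, and -0.70). Thyroid axis genes had a median of -0.24 over 11 members, and -0.21 without low dose replicate 4, with no member at an unadjusted p under 0.05. The thyroid and forebrain factor nkx2.1 was at -0.64 (SE 0.33, and -0.60). Scores of the thyroid list were 0.28, -0.10, -0.10 and 0.02 in low dose replicates 1 to 4. All lay within the control range of -0.54 to 0.50. For the relatives of the insecticide's target, the 21 measured GABA-A receptor subunits had a median of 0.07, and -0.17 without low dose replicate 4, with 0 at an unadjusted p under 0.05 in either fit. Their control scores ran from -1.21 to 0.71 and all 4 low-dose scores lay within that range. Glycine receptor and transport genes had a median of -0.08 over 5 members, and -0.12 without low dose replicate 4, with 4 of 5 lower in both fits.

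Groups with higher values were led by the exocrine pancreas. Pancreatic serine proteases were higher in 12 of 12 members (median 0.70), and in 10 of 12 without low dose replicate 4 (median 0.38). Carboxypeptidases, amylases and lipases were higher in 8 of 9 (median 0.76), and in 9 of 9 without that library (median 0.46). At an unadjusted p under 0.05, 4 of these 9 were higher (all genes: 2.09%), and 0 without low dose replicate 4 (all genes: 0.569%). Of the 12 serine proteases 1 was higher at that threshold in each fit. The scores of carboxypeptidases, amylases and lipases were 0.58, 0.40, 0.51 and 1.59 in low dose replicates 1 to 4. Controls spread from -1.02 to 1.11. Replicates 1 to 3 thus lay inside the control range. The amylase gene amy2a was at 104, 92.5, 106 and 248 CPM against 36.2, 36.8, 109, 58.1 and 73.5 CPM (log2 fold change 1.13, SE 0.37, and 0.68 without low dose replicate 4). The trypsin-type gene prss59.2 was at 269, 275, 230 and 494 CPM against 143, 47.0, 356, 184 and 172 CPM (0.81, SE 0.43, and 0.52), and it has close copies beside it.

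Proteasome genes, for the complex that degrades ubiquitin-tagged proteins, were listed by symbol, which also takes in psmc3ip, not a proteasome subunit. They were higher in 41 of 51 members (median 0.35) and in 42 of 51 without low dose replicate 4 (median 0.23). At an unadjusted p under 0.05, 6 of 51 were higher and 0 lower (all genes: 2.09% higher), and 1 was higher without that library (all genes: 0.569%). Scores were -0.05, 0.52, 0.37 and 0.72 in low dose replicates 1 to 4 and -0.64 to 0.60 in controls. The lid subunit gene psmd7 was at 17.2, 25.2, 25.1 and 36.73 CPM against 15.2, 9.28, 12.9, 17.5 and 12.4 CPM, where low dose replicate 1 overlapped 1 control (log2 fold change 0.96, SE 0.25, and 0.75). All 8 genes with the stem psmc were higher in both fits (median 0.41, and 0.33), and they are the ATPases of the base apart from psmc3ip (0.24, and 0.39 without low dose replicate 4). Scores of the psmc genes were -0.16, 0.62, 0.41 and 0.82 against -0.59 to 0.53 in controls, so replicates 1 and 3 lay inside. The chaperonin TRiC, which folds actin and tubulin, was higher in 8 of 8 members in both fits (median 0.21, and 0.19). Its scores were -0.08, 0.42, 0.33 and 0.26 against -0.52 to 0.40 in controls, so only replicate 2 lay outside. With none of its 8 at an unadjusted p under 0.05, its largest log2 fold changes among the named members were 0.31 for cct3 and 0.25 for cct6a, both with an SE of at least 0.21. Ribosome biogenesis and snoRNP genes were higher in 26 of 31 members (median 0.33, and 0.15), with the nucleolar protein ncl at 514, 592, 579 and 700 CPM against 386 to 520 CPM (0.39, SE 0.17, and 0.30).

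Myosin heavy chain genes were higher in 20 of 23 members (median 0.45) and in 19 of 23 without low dose replicate 4 (median 0.27). Scores were 0.31, 0.28, 0.53 and 0.79 against a control range of -0.56 to 0.37, so replicates 3 and 4 lay above it. Besides myhz1.2, myhz2 was at 2064, 1451, 2708 and 3404 CPM against 1204, 751, 1639, 1608 and 1867 CPM (log2 fold change 0.77, SE 0.30, and 0.55). The slow-fibre gene smyhc2 went the other way, at 2.81 to 3.99 CPM against 1.57 to 18.0 CPM (-1.14, SE 0.59, and -0.58 without control replicate 1). Thin filament, light chain and Z-disc genes had no such median: the median over 56 members was -0.07, and 0.05 without low dose replicate 4. Without control replicate 2 the myosin median was 0.28.

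Several groups had small medians of the same sign in both fits. For the 13 protein-coding genes encoded by mitochondrial DNA the median was -0.32 (12 of 13 lower), and -0.21 without low dose replicate 4. Their scores of -0.53, 0.09, -0.22 and -0.73 left replicate 2 inside the control range of -0.19 to 0.25. Mitochondrial transcripts together with histone-type genes, listed as signs of RNA quality, had a median of -0.32 and -0.20. Whether RNA quality had a part in the groups above was not tested. Amino acid response genes under ATF4 were at -0.08 and -0.21, and metallothionein and metal genes at -0.10 and -0.16. Scores of the ATF4 list were -0.29, -0.06, -0.12 and 0.11 in low dose replicates 1 to 4 and -0.03 to 0.15 in controls. Replicates 1 to 3 thus lay below every control and replicate 4 inside. The list was picked out of 76 for these scores, so they are no further support. Conjugation enzymes had a median of -0.18 and -0.17 over 47 members. Their scores were 0.01, 0.06, -0.04 and -0.74 in low dose replicates 1 to 4 and -0.55 to 0.48 in controls. In that list 2 members had higher values with no overlap between groups (all genes: 0.712% higher). One was the glucuronosyltransferase gene ugt2a7, at 3.44, 2.52, 2.62 and 2.68 CPM against 0.740, 0.214, 1.15, 1.46 and 0.522 CPM (log2 fold change 1.79, SE 0.55, and 1.81 without low dose replicate 4). The other was nat15, an acetyltransferase, at 20.01 to 24.4 CPM against 10.7 to 19.7 CPM (0.45, SE 0.20, and 0.50). Whether nat15 acts as a conjugation enzyme was not tested.

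Interferon response genes had a median of 0.17, and 0.19 without low dose replicate 4. Scores were 0.91, -0.33, 0.45 and -0.19 in low dose replicates 1 to 4 and -0.85 to 0.81 in controls. Only replicate 1 lay outside the control range. The 2 members with no overlap between groups were lower (all genes: 0.835% lower). The transcription factor gene irf7 was at 7.53, 6.92, 9.21 and 7.38 CPM against 12.1, 12.35, 10.15, 11.98 and 9.40 CPM (log2 fold change -0.53, SE 0.22, and -0.51), and stat1a at 87.1, 90.7, 88.5 and 62.9 CPM against 97.5 to 117 CPM (-0.37, SE 0.16, and -0.26). Both carry the signal from interferon receptors or viral RNA sensors to the nucleus. The level of cyp1a, the classic target of the aryl hydrocarbon receptor, was 24.6, 9.30, 9.50 and 11.1 CPM against 5.55, 3.21, 16.96, 7.497 and 7.24 CPM. Only replicate 1 lay above the controls, and the log2 fold change of 0.76 (SE 0.45) was 0.31 without it. For the inducible chaperone hsp70.3, the levels were 3.04, 3.08, 1.65 and 17.9 CPM against 0.314 to 2.01 CPM (2.65, SE 0.73, and 1.34 without low dose replicate 4), with low dose replicate 3 inside the control range.

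**Figure D5:**
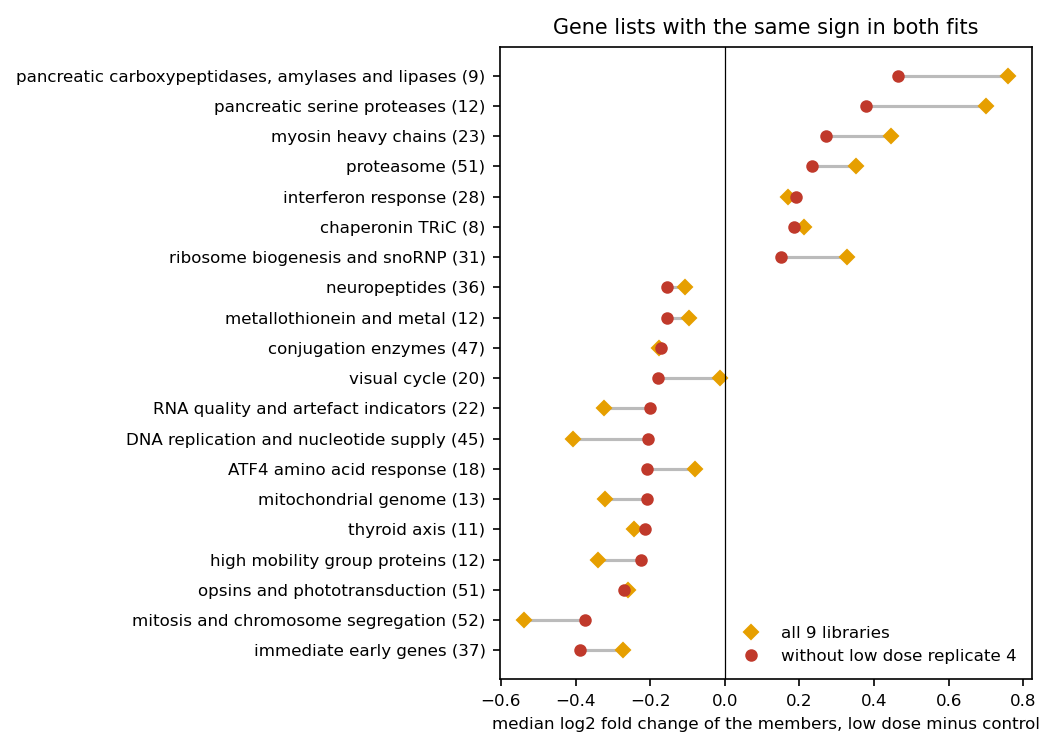
Median log2 fold change (low dose minus control, horizontal axis) over the members of each of the 20 described lists, with the number of measured members in brackets, for all 9 libraries (orange diamonds) and without low dose replicate 4 (red circles). Medians without that library run from -0.39 (immediate early genes) to 0.46 (pancreatic carboxypeptidases, amylases and lipases).

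Some medians moved with single libraries. Lens crystallins were higher in 47 of 47 members with a median of 0.94, and without low dose replicate 4 the median was 0.04 with 26 of 47 higher. With control replicates 2 and 3 left out as well it was 0.93 with 45 of 47 higher. Their scores were 0.78, 0.25, -0.13 and 2.58 in low dose replicates 1 to 4 and -1.28 to 1.5 in controls, where control replicates 2 (1.5) and 3 (0.65) were the highest. The gamma crystallin gene crygm2d12 was at 60.4 CPM in replicate 4, at 3.01 to 6.17 CPM in the other low-dose libraries and at 0.814 to 8.85 CPM in controls. Its log2 fold change was 2.07 (SE 0.91) with all libraries, -0.02 without low dose replicate 4 and 1.33 (SE 0.54) without control replicates 2 and 3 as well, and that of the beta crystallin gene crybb1l1 was 1.53, 0.13 and 1.45. Clock genes had a median of 0.44, with 0.05 without low dose replicate 4 and 0.08 without control replicates 2 and 3 as well, and their score in replicate 4 was 1.2 against -0.39 to 0.48 in controls. The Rev-erb type receptor gene nr1d4b was at 26.1 CPM there and at 1.26 to 6.22 CPM in all other libraries. The synuclein gene sncga was at 29.9 CPM there and at 0.979 to 4.19 CPM elsewhere.

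At other genes replicate 4 was nearly without counts. The genes csdc2a, an RNA-binding protein, phf5a, a splicing factor subunit, and aspm, a spindle pole protein, were listed at 0 in replicate 4. In the other 8 libraries csdc2a was at 67.7 to 110 CPM, phf5a at 6.33 to 15.3 CPM and aspm at 4.11 to 7.85 CPM. The glycine receptor gene glra4a was at 0.168 CPM against 7.18 to 13.6 CPM elsewhere, and its log2 fold change of -0.53 was -0.12 without that library. With the 3 libraries that stood apart left out, the medians of some lists were nearer 0, at -0.13 for high mobility group proteins, -0.05 for the thyroid axis, -0.09 for the visual cycle, -0.10 for conjugation enzymes, -0.04 for metallothionein and metal genes and -0.06 for neuropeptides. Other medians were farther from 0 in that fit, at -0.54 for immediate early genes, -0.41 for mitosis and -0.24 for DNA replication. For immediate early genes, control replicates 2 (-0.53) and 3 (-0.45) had the lowest scores of the 9 libraries. Control replicates 1, 4 and 5 were at 0.12, 0.54 and 0.46, so leaving out replicates 2 and 3 raises the control side. In the mitosis list control replicate 5 scored 0.70 and the other controls -0.27 to 0.09. In the DNA replication list it scored 0.35 and the others -0.25 to 0.24, so control replicate 5 weighs more in that fit. Among pancreatic genes, amy2a (0.85) and prss59.2 (0.63) had larger values there than without low dose replicate 4 alone, and cpa1 (0.50) a smaller one. In all, 17 lists, lens crystallins among them, had a median of at least 0.15 in size with all 9 libraries but not without replicate 4 alone. Another 37 of the 76 lists stayed under 0.15 in both of these fits.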

How the data were processed

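Poly(A) RNA of larvae was sequenced in 12 libraries, of which the 4 low-dose and 5 control libraries were used. Tools named in the submitters' processing notes are HISAT2, fastp, DESeq2 and featureCounts, and the build named there is GRCz11, without versions or roles. Per the file headers, the deposited low-dose table gives 1 raw read count per gene and library, from which all values here start. FPKM columns deposited by the authors, as named per the file headers, were not analysed further. The authors' log2 fold change was read from the deposited tables for the sentences that name them. The same holds for the p-value the authors deposited, before and after adjustment. Another 33 columns of per-sample values were not used.

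Genes averaging 10 or more counts were tested by the quasi-likelihood method of edgeR 4.0.16 under R 4.3.3 after TMM scaling, at a prior count of 0.125. Levels are CPM on that scale, and each SE is the size of the log2 fold change over the root of its F statistic. List scores use log2 CPM with a prior count of 1. The biological coefficient of variation was 39.8%, and 37.1% without low dose replicate 4, and the median SE over genes was 0.33. The code was tested on simulated data. Members, the 78 lists and the rules were chosen with earlier results of these data known.

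Named genes were the 14 higher and 14 lower genes with the smallest p among those with no overlap between groups, a standard symbol and a mean count of at least 50. Up to 4 members per described list, those with the smallest p without low dose replicate 4, were added. So were the 6 higher and 6 lower genes with the largest log2 fold change at which that library lies beyond all others and whose value without it is under 0.2 in size, genes past an adjusted 0.05 by DESeq2 or the authors, cyp1a, and members of the 6 highest and 6 lowest symbol-stem families. The remaining her genes, and those in runs along chromosomes, were named after their values were seen. Alternatives were RLE size factors, no filter, at least 50 counts, DESeq2 1.42.0, limma 3.58.1 with weights per library, a block for the replicate number, and libraries left out.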

Additional observations from a re-analysis of the deposited data

Results flagged for a closer look

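Over the named genes, list scores and library totals, 314 groups of 4 or 5 samples were looked at, and in 39 the highest or lowest sample was set apart by a gap larger than Dixon's limit (0.829 of the range for 4 samples, 0.710 for 5). Chance flags about 1 in 20 groups that were not picked by their values. That rate does not apply to the genes named because low dose replicate 4 lay beyond all other libraries, among them crygm2d12, sncga, nr1d4b, mtus1b and glra4a. Nor does it apply to list members named for the smallest p without that library, among them fosl1a, dusp5, jund, amy2a and cpa1. Such a choice favours genes at which low dose replicates 1 to 3 lie close together, and so a gap at replicate 4. Of the 39, 27 concern low dose replicate 4, 6 control replicate 3, 2 control replicate 2, and 1 each control replicates 1, 4 and 5 and low dose replicate 1.

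Low dose replicate 4 was the highest of its group at genes of several kinds. Among immediate early and stress genes, it was at 19.1 CPM for fosl1a, 19 for dusp5, 129 for jund, 28.7 for nr4a2b, 292 for ddit4, 17.9 for hsp70.3 and 15.7 for hsp70.2. Among eye genes it was at 60.4 CPM for crygm2d12, 826 for crybb1l1, 165 for crygm2d20, 123 for rpe65a, 24.2 for rdh5 and 58.7 for cnga3b. In the exocrine pancreas it was at 248 CPM for amy2a and 64.5 for cpa1, with list scores of 1.46 for serine proteases and 1.59 for carboxypeptidases, amylases and lipases. The others were nploc4 (87.1 CPM), prodha (124), slc39a10 (50.7), sncga (29.9), nr1d4b (26.0) and mtus1b (17.8). It was the lowest for sh3bp5b (19.1 CPM), stat1a (62.9), glra4a (0.168) and the score of conjugation enzymes (-0.74).

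Control replicate 3 was the highest control for mt-nd3 (1722 CPM), h2afx1 (106), sst1.1 (56.0), psmd10 (1.67) and her4.1 (19.6), and the lowest for polr3a (5.34). Control replicate 2 was the lowest for myhz1.2 (691 CPM) and entpd5b (6.07). Control replicate 1 was the highest for hmgn6 (24.4 CPM), control replicate 4 the lowest for psat1 (11.9 CPM), and control replicate 5 had the highest total of its group (15491749 counts). Low dose replicate 1 was the highest of its group for cyp1a (24.6 CPM).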

How the results depend on the processing

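The count of genes past an adjusted p of 0.05 was 0 under every edgeR and limma alternative and 1 with DESeq2 (rps15). Unadjusted it was 732. Without replicate 4 it was 0 under all alternatives run, DESeq2 included. Whether replicate numbers pair samples is not stated, and so few correlations cannot settle it. Correlations of same-numbered libraries were 0.166, -0.0144, 0.255 and -0.0546, and 2 of 4 low-dose libraries correlated best with their own number. With the replicate block 0 genes passed, and 743 (397 with low dose replicate 4 left out) had an unadjusted p under 0.05. That number ranged from 277 to 1201 with 1 library left out (277 without low dose replicate 4, 1201 without low dose replicate 2). Starting from the 277, it ranged from 120 (without low dose replicate 3) to 459 (without control replicate 3), with 454 without control replicate 2, 783 by limma, 461 with no filter and 599 without control replicates 2 and 3. The share of higher genes was 53.7%, and 63.8% with no filter, 64.4% without control replicate 3, 66.1% without low dose replicate 1 and 38.6% without low dose replicate 4. From the last, it was 59.0% with no filter, 65.0% with the replicate block, 54.5% by limma, 55.6% without control replicate 3 and 49.2% without control replicates 2 and 3. Genes with no overlap numbered 291, and 417 to 1109 with 1 library left out, where fewer samples make separation easier. Lists with a median of at least 0.15 in size numbered 33, 22 to 38 with 1 library left out, and 20 with the 3 libraries that stood apart left out.

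Of 2278 gene values under alternatives, 39 changed sign, in 14 genes, and the cause was not tested. Over leaving out 1 library, log2 fold changes ran from -1.29 to 0.66 for dusp5, -0.59 to 0.49 for cnga3b, -0.15 to 0.48 for opn1mw2, -0.37 to 0.21 for hmgn3, -0.55 to 0.013 for dio1, -0.62 to 0.33 for ddit4, -0.38 to 0.45 for rpe65a, -0.33 to 0.35 for rdh5, -0.21 to 0.012 for slc39a10, -0.020 to 2.52 for crygm2d12 and -0.13 to 1.69 for crygm2d20. With the 3 libraries left out they were -1.60 for dusp5, -0.51 for cnga3b, -0.057 for hmgn3, -0.81 for ddit4, -0.27 for rpe65a, -0.35 for rdh5, -0.23 for mtus1b, 0.017 for aspm and 0.090 for glra4a. By limma they were -1.26 for dusp5, -0.45 for cnga3b, -0.22 for hmgn3, 0.12 for dio1, -0.60 for ddit4, -0.24 for rpe65a and -0.24 for rdh5. With the replicate block they were -0.089 for dusp5, -0.067 for cnga3b, -0.072 for opn1mw2, -0.20 for hmgn3, -0.075 for ddit4 and -0.040 for rpe65a. Without control replicates 2 and 3, dusp5 was at -0.086 and ddit4 at -0.079.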

Other observations

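The genes nearly without counts in low dose replicate 4 lie partly in runs along the chromosomes. This was looked at after the values were seen. Taking genes whose other 8 libraries have a median count of at least 20, and calling a gene low where 1 library is under 20% of the median of the other 8 in CPM, runs of at least 3 neighbouring low genes were counted in each library. Low dose replicate 4 had 389 low genes (2.35% of those considered), of which 85 were in 19 runs. Control replicate 3 had more low genes, 667 (3.98%), but 16 of them in 4 runs, and control replicate 2 had 477 (2.86%) with 26 in 8 runs. Low dose replicate 2 had 1 run, and the other 5 libraries had 0.

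The longest run held 10 neighbouring measured genes on chromosome 12 from kctd17 at 19036380 to pdap1a ending at 19204444 (GRCz11). There the clock-output factor tefa had 41 counts in low dose replicate 4 and 2904 to 5527 in the other libraries, csdc2a 0 against 801 to 1403, and pdap1a 6 against 499 to 766. Also in the run were kctd17 (29 against 131 to 286), phf5a (0 against 79 to 205), zc3h7b (3 against 28 to 192), cby1 (7 against 55 to 114) and slc16a8 (1 against 7 to 59).

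On chromosome 14, hnrnpa0b, hnrnpa0l and gsr, and beyond them timm8a, gla and glra4a, were low in low dose replicate 4, where hnrnpa0l, an mRNA-binding protein, had 199 counts against 1393 to 2292. On chromosome 1, actb1, a cytoplasmic actin, had 430 counts against 1771 to 4152, with fscn1b and fbxl18 beside it also low. Another run there held prom1b, tapt1b, ldb2b and qdprb1, with 1 to 9 counts each. A run on chromosome 20 included rmdn3, with 18 counts against 232 to 357. Several runs on chromosome 4 were mostly of genes with clone-form names. In 1 of them, 6 genes ran from 32772213 to 37766174, so neighbours in a run can lie far apart.

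The reverse was counted as a library at over 5 times the median of the other 8. Low dose replicate 4 had 8 such runs with 25 genes and the other 8 libraries 0. One held pou3f2b, fbxl4 and faxcb on chromosome 16, with 783, 492 and 212 counts against at most 90, 38 and 9. Another held mospd1, ints6l and mmgt1 on chromosome 14, with 285, 187 and 517 counts against at most 80, 36 and 133. A further one held ndufab1a and ern2 on chromosome 1, with 303 and 110 counts against at most 30 and 9. The rest were the hsp70.1 to hsp70.3 cluster on chromosome 3 and gamma crystallin clusters on chromosome 9, whose close copies may share reads. On chromosome 12, the log2 fold change of tefa was -0.46 with and -0.05 without low dose replicate 4.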
